A study of Mus musculus with 55 samples.

Results

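Islets of wild-type mice were compared at 25 and 8 weeks of age by bulk RNA-seq. Islets are the hormone-secreting cell clusters of the pancreas. The libraries were chosen by the genotype and age in their labels, with 3 libraries at 25 weeks (replicates 2, 3 and 4) and 3 at 8 weeks (replicates 1, 3 and 4). They are 6 of the 16 bulk RNA-seq libraries and 6 of the 55 samples at hand. All mice were labelled C57B6/J and kept on chow, and each wild-type library held islets of 1 or 2 animals. The study's knockout line deletes Eed with RIP-Cre, in which an insulin promoter drives Cre in β cells, and which of these alleles the wild-type mice carried was not given in the sources used here. Islets were released with collagenase, purified on Histopaque, picked by hand and cultured in medium with glucose, so each value is an average over endocrine cells, vessels, connective tissue and any exocrine tissue picked along. In such bulk samples fewer cells of a type and less RNA per cell cannot be told apart. Islets of Eed heterozygous mice at 8 weeks (3 libraries) and 25 weeks (2 libraries) share no library with the wild-type comparison and are set beside it.

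Between these ages a mouse passes from young to full adulthood. β cells divide often in early life and rarely later, and they reach their mature secretory state gradually. Polycomb repressive complex 2 (PRC2), of which Eed and Ezh2 are subunits, places the repressive mark H3K27me3 and is known for its part in β cell identity and division. α, δ and PP cells make glucagon, somatostatin and pancreatic polypeptide, and macrophages, endothelial cells and pericytes live inside the islet.

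The total count ranged from 18523130 to 18862300 reads at 8 weeks and was 4645393, 11854558 and 15004056 reads in replicates 2, 3 and 4 at 25 weeks. The libraries carried islet hormones, with Ins2 at 7.09% to 13.8% of the reads and Gcg at 0.708% to 3.04%. The 8-week replicate 1 lay with the 25-week libraries on the first principal component, which held 46.9% of the variance (-38.61, against 61.15 and 64.46 for the other 8-week libraries and -49.51 to -16.71 at 25 weeks). The 25-week replicate 2, the shallowest library, lay apart from the other 25-week libraries on the second component, which held 28.3%. The library labelled 8-week replicate 1 goes against its age label in the first component and in its correlations. Its log2 CPM correlated with those of the 25-week replicates 2, 3 and 4 at 0.949, 0.935 and 0.95, and with those of the 8-week replicates 3 and 4 at 0.92 and 0.919. Whether its label is correct was not tested, and it is called the 8-week replicate 1 here by its label. Fits without each library in turn were planned, and the fit without both of these libraries was added after the data were seen. Eed itself had 22.5, 31.5 and 29.1 CPM at 8 weeks and 27.6, 21.3 and 18.4 CPM at 25 weeks (CPM are read counts scaled to a common library total with TMM factors), and the heterozygous libraries had 15.9 to 19.9 CPM, a range that overlapped the lowest wild-type library.

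No gene passed the test of wild type alone. Of 15554 genes tested with edgeR's quasi-likelihood test, 0 (0.0%) were higher and 0 (0.0%) lower at 25 weeks with an adjusted p under 0.05. At an unadjusted p under 0.05, 840 genes (5.4%) were higher and 1055 (6.78%) lower. All 25-week libraries lay above all 8-week libraries for 1287 genes (8.27%) and below them for 1229 (7.9%), which is called no overlap in what follows. The same counts were 2459 (15.8%) and 2523 (16.2%) in heterozygous islets, where the groups are smaller. DESeq2 called 88 of 15500 genes (0.568%) higher and 210 (1.35%) lower in the same 6 libraries. Without the 8-week replicate 1, 3888 genes (25.0%) were higher and 3917 (25.2%) lower without overlap, and edgeR called 592 of 15950 genes (3.71%) higher and 971 (6.09%) lower. Without that library and the 25-week replicate 2 it called 2528 of 15745 (16.1%) and 2634 (16.7%). List counts below stand against these shares, and a count near them is not read as a result about the list. A gene is said to have risen or fallen only where a named fit passed, and the p-values measure the spread between these libraries.

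When wild-type and heterozygous islets were fitted together, 13 genes rose with age and 2 fell. With a single age effect over these 11 libraries, 17140 genes were tested, so that 0.0758% rose and 0.0117% fell. All 15 had no overlap in either genotype, where 419 (2.69%) of the genes tested in wild type were higher in this way and 374 (2.4%) lower. All 15 also passed DESeq2 in wild type alone, 14 passed edgeR without the 8-week replicate 1 (Jam2 missed it, adjusted p = 0.0528), and 10 passed DESeq2 in heterozygous islets alone. These fits and the no-overlap counts reuse the libraries by which the 15 were chosen. They describe the 15 and are no independent support. In DESeq2 the 298 genes called in wild type and the 26 called in heterozygous islets shared 12 in the same direction and 0 in the opposite one, which is 4.03% of the former and 46.2% of the latter.

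Barhl1, a homeobox transcription factor of the developing nervous system, rose most of the 15. It lies on chromosome 2 (GRCm38, 28907679 to 28916668, minus strand). Barhl1 had 0.717, 0.166 and 0.641 CPM at 8 weeks and 6.80, 8.67 and 7.85 CPM at 25 weeks in wild type. In heterozygous islets Barhl1 had 1.08, 1.25 and 1.00 CPM and then 8.21 and 5.66 CPM. The ages lay far apart in both genotypes, although the wild-type 8-week values rest on 12, 3 and 13 reads. The log2 fold change of Barhl1 was 3.30 ± 0.37 over both genotypes (SE, n = 11 libraries; adjusted p = 0.019, edgeR), and 3.92 ± 0.53 in wild type alone (n = 6; adjusted p = 0.254, edgeR).

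Nmnat2, which makes NAD in axons and protects them, had the same order. Nmnat2 (chromosome 1, 152954993 to 153119261) had 1.85, 2.44 and 0.986 CPM at 8 weeks and 9.13, 11.5 and 12.4 CPM at 25 weeks in wild type. Heterozygous islets had 0.745, 0.993 and 3.48 CPM and then 16.5 and 8.49 CPM. Nmnat2 rose by a log2 fold change of 2.72 ± 0.40 over both genotypes (adjusted p = 0.034). Snhg11, a long non-coding RNA known from the brain, lies on chromosome 2 (158375638 to 158386145). Snhg11 had 25.3, 13.4 and 18.7 CPM at 8 weeks and 103, 118 and 121 CPM at 25 weeks in wild type and 30.1, 45.1 and 43.0 CPM and then 93.3 and 104 CPM in heterozygous islets. Its 8-week level was lower in each wild-type library than in each heterozygous one. Snhg11 rose by 2.01 ± 0.26 over both genotypes (log2 fold change, adjusted p = 0.0228), and in wild type alone its log2 fold change was 2.57 ± 0.27 (adjusted p = 0.167).

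The other risers changed less. Frrs1l, an auxiliary protein of AMPA glutamate receptors, had 2.99, 2.33 and 2.71 CPM and then 8.07, 10.4 and 6.89 CPM in wild type and rose by 1.66 ± 0.21 on the log2 scale over both genotypes (adjusted p = 0.0228). Chd5, a chromatin remodeler of neurons, had 30.6, 25.1 and 32.5 CPM and then 58.2, 86.7 and 82.1 CPM and rose by 1.29 ± 0.17 (adjusted p = 0.0228). Scrt1, a zinc finger repressor of neurons, had 11.2, 4.32 and 9.62 CPM and then 21.03, 28.04 and 28.4 CPM and rose by 1.45 ± 0.22 (adjusted p = 0.045). These 3 genes were lowest in the 8-week replicate 3. Clip4 had 3.32 to 5.08 CPM and then 10.6 to 18.6 CPM and rose by 1.59 ± 0.22 (adjusted p = 0.0228), and Ppm1e, a protein phosphatase, had 5.49 to 9.33 CPM and then 15.3 to 21.03 CPM and rose by 1.33 ± 0.18 (adjusted p = 0.0228). Tmem59l had 18.9 to 30.6 CPM and then 53.4 to 56.5 CPM and rose by 1.22 ± 0.14 (adjusted p = 0.019). Map7d2, which binds microtubules, rose by 1.15 ± 0.15, and Lgi1, a secreted protein of synapses, by 1.13 ± 0.15 (both adjusted p = 0.0228). Dcaf12l1 rose by 0.87 ± 0.13 (adjusted p = 0.034) and Jam2, a junctional adhesion molecule, by 0.81 ± 0.11 (adjusted p = 0.0228).

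**Figure D1:**
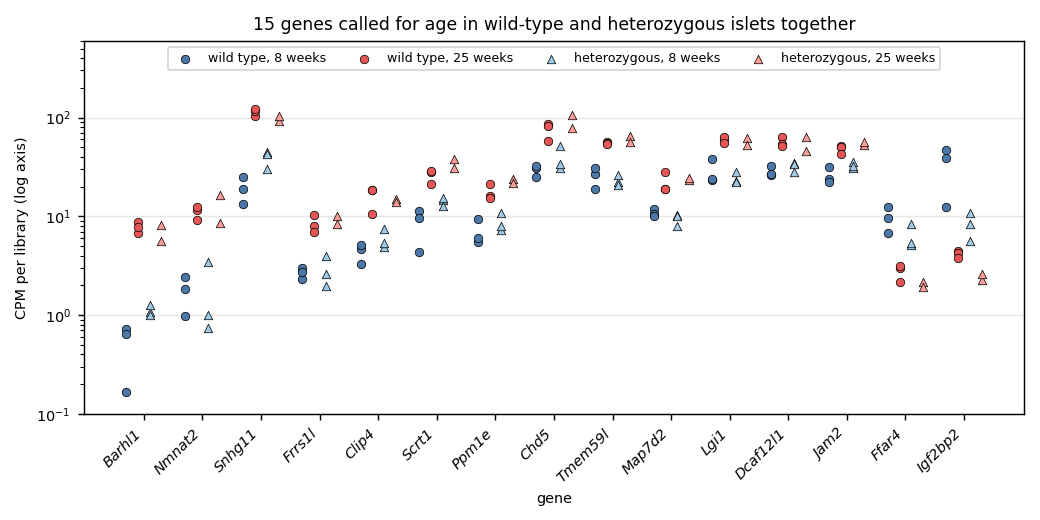
Level of the 15 genes called for age in wild-type and heterozygous islets together, as CPM on a log axis, with 1 point per library (circles, wild type; triangles, heterozygous; blue, 8 weeks; red, 25 weeks). For the 13 genes from Barhl1 to Jam2 the 25-week libraries of each genotype lie above its 8-week libraries, and for Ffar4 and Igf2bp2 below.

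The 2 genes that fell are known from growth and nutrient sensing. Igf2bp2, an RNA-binding protein expressed in fetal tissue, is on chromosome 16 (22059009 to 22163299). Igf2bp2 had 12.6, 39.2 and 47.3 CPM at 8 weeks and 4.46, 4.22 and 3.78 CPM at 25 weeks in wild type and 5.69, 8.46 and 10.8 CPM and then 2.28 and 2.60 CPM in heterozygous islets. The wild-type 8-week levels were spread, with replicate 1 lowest, while the 25-week levels lay close together. Igf2bp2 fell by 2.46 ± 0.38 on the log2 scale over both genotypes (adjusted p = 0.045). Ffar4, a receptor for long-chain fatty acids, is on chromosome 19 (38097071 to 38114263) and had 6.76, 9.70 and 12.4 CPM at 8 weeks and 2.97, 2.19 and 3.11 CPM at 25 weeks in wild type. In heterozygous islets it had 5.08, 8.42 and 5.42 CPM and then 2.17 and 1.93 CPM. Ffar4 fell by 1.74 ± 0.23 on the log2 scale over both genotypes (adjusted p = 0.0228).

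The authors' chromatin map of wild-type islets gives each stretch of the autosomes a state letter, and 11 of the 13 risers had a state at their start site. For 8 of them it was a state with H3K27me3. Nmnat2, Frrs1l, Chd5, Tmem59l and Jam2 lay in L, and Barhl1 and Snhg11 in M, both bivalent states that also carry H3K4me3. Clip4 lay in N, a Polycomb state. The other 3, Scrt1, Ppm1e and Lgi1, lay in state B. Of the tested genes with a state, 22.3% lie in L, M, N or O and 20.0% in B. The active start site state A holds 44.9% and held 0 of the 11. Higher without overlap in both genotypes were 102 genes in L, M, N or O (3.3% of them) and 342 over all states (2.46%). The median 8-week level was 4.19 CPM in L, M, N and O and 35.4 CPM in A. Whether the states of the 11 differ from those of other genes was not tested.

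In islets of βEedKO mice, which lack Eed in β cells, 8 of the 13 risers were above all wild-type libraries at 8 weeks, where 826 of 15554 genes (5.31%) were higher in this way and 861 (5.54%) lower. This contrast uses the wild-type 8-week libraries by which the 13 were chosen, so the count is a description and nothing is read from it. Nmnat2 had 20.2, 23.2 and 20.6 CPM in the 8-week βEedKO libraries, Tmem59l 67.1, 70.0 and 92.8 CPM and Barhl1 12.6, 6.02 and 6.66 CPM. Within βEedKO, 4 of the 13 were higher at 25 weeks without overlap, as were 14.1% of all genes tested. Barhl1 was not among them, with 2.74 and 4.68 CPM at 25 weeks.

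Many genes of the dividing cell were lower at 25 weeks, and how many passed a test depended on the fit. Of the 50 genes of a cell cycle and proliferation list 49 were tested, with a median log2 fold change of -0.83, against 0.01 for all genes tested. Of the 49, 18 (36.7%) were lower without overlap and 0 higher, against 7.9% and 8.27% of all genes tested. Without the 8-week replicate 1 the median was -0.74. In heterozygous islets it was -0.50, with 21 genes (42.9%) lower without overlap and 1 higher, against 16.2% and 15.8% of all genes tested. In both genotypes 12 genes were lower in this way, as were 2.4% of all genes tested. DESeq2 called 5 of the 49 lower in wild type, where it called 1.35% of all genes lower. Without the 8-week replicate 1 edgeR also called 5 lower, where it called 6.09% of all genes lower. Without that library and the 25-week replicate 2 edgeR called 17 of the 49 lower and 2 higher, against 16.7% and 16.1% of all genes.

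Mki67, the usual marker of dividing cells, had 17.6, 21.3 and 12.6 CPM at 8 weeks and 4.67, 3.42 and 3.56 CPM at 25 weeks. The ages lay apart, the 8-week replicate 1 included. Its log2 fold change was -2.16 ± 0.30 (adjusted p = 0.254 in edgeR, 2.76e-06 in DESeq2). In heterozygous islets Mki67 had 12.6, 10.9 and 6.83 CPM and then 3.49 and 7.25 CPM, which overlap. Top2a, the DNA topoisomerase of dividing cells, had 12.8, 17.2 and 8.93 CPM and then 3.82, 2.48 and 1.63 CPM (log2 fold change -2.35 ± 0.41, adjusted p = 0.354) and did not overlap in heterozygous islets. Ccnb2, cyclin B2, had 2.63, 3.05 and 1.68 CPM and then 0.425, 0.364 and 0.518 CPM (-2.46 ± 0.49, adjusted p = 0.364).

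The same order was seen in Tpx2, a spindle assembly factor (log2 fold change -2.19 ± 0.47), Birc5, or survivin (-2.30 ± 0.58), Cdc20, which activates the anaphase-promoting complex (-2.10 ± 0.57), and the mitotic kinases Cdk1 (-1.86 ± 0.51) and Plk1 (-1.73 ± 0.60). Each was lower without overlap, and none passed edgeR in wild type alone (adjusted p from 0.364 for Tpx2 to 0.39 for Plk1). The replication licensing gene Mcm6 had 17.1, 30.1 and 26.7 CPM and then 14.9, 11.4 and 9.56 CPM (-1.06 ± 0.29, adjusted p = 0.376). The D cyclins, which start the cell cycle, differed less. Ccnd1 had 97.3, 87.9 and 108 CPM and then 56.1, 67.2 and 68.7 CPM (-0.61 ± 0.19), and Ccnd2 had 612, 756 and 911 CPM and then 507, 523 and 458 CPM (-0.61 ± 0.28). Cdk4, their kinase partner, overlapped between the ages, with 81.1 to 89.9 CPM and then 81.1 to 105 CPM.

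**Figure D2:**
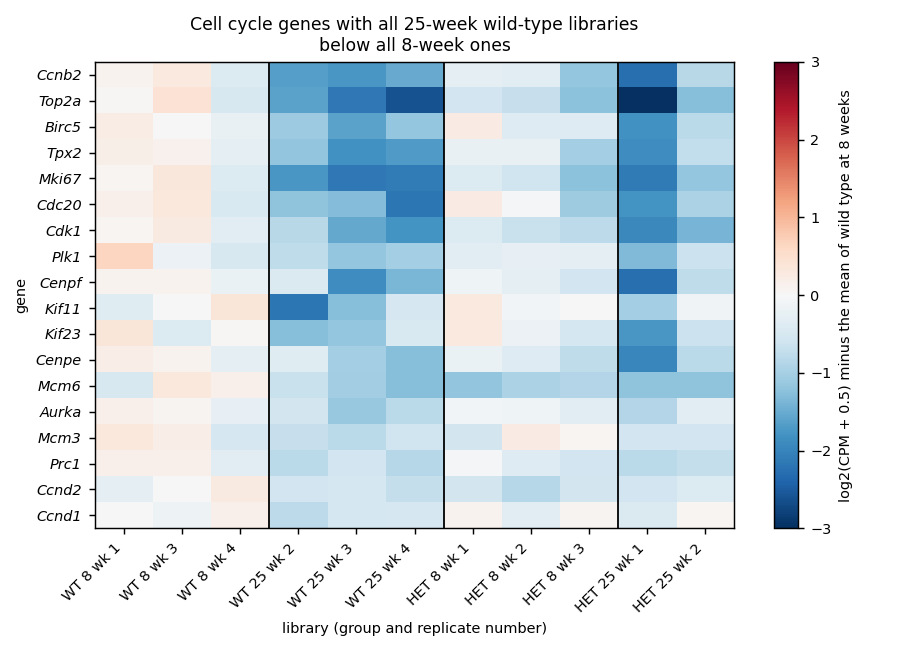
The 18 cell cycle genes that were lower at 25 weeks without overlap in wild type (rows), in each wild-type and heterozygous library (columns), as log2(CPM + 0.5) minus the mean of the wild-type 8-week libraries. Blue is lower; the wild-type 25-week columns are blue throughout, and the heterozygous columns vary more, with replicate 1 at 25 weeks darkest.

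Promoters of such genes are known for 2 short elements, the cell cycle homology region (TTTGAA) and the inverted CCAAT box (ATTGG). The promoters of 3 of the named genes are shown because they hold both. They were taken from RefSeq on GRCm38.p6 and run 5′ to 3′ on the strand of the gene, from before its start to just after it. Capitals mark TTTGAA and ATTGG, or TTCAAA and CCAAT where the match is on the opposite strand, and no match overlaps another. Top2a is at chr11:99024140-99024439, Mki67 at chr7:135716330-135716629 and Ccnb2 at chr9:70421505-70421804, all on the minus strand.
Top2a: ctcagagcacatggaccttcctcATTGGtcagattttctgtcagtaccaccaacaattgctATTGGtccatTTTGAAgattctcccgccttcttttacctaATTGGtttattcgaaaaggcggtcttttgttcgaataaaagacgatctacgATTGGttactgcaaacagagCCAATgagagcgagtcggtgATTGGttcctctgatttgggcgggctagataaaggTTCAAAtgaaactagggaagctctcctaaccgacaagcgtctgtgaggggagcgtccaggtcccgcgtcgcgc
Mki67: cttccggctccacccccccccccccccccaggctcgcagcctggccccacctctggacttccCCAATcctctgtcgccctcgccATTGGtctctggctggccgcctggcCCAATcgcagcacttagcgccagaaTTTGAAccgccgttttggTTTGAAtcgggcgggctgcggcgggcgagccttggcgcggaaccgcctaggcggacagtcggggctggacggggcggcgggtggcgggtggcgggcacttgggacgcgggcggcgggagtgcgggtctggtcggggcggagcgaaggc
Ccnb2: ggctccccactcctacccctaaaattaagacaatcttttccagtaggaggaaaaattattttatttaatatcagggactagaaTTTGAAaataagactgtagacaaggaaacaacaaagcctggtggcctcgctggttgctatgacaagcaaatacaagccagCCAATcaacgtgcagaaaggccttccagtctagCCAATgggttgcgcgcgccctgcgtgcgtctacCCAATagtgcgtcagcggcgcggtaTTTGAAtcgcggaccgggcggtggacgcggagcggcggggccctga

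The Top2a promoter holds 8 matches, and those of Mki67 and Ccnb2 hold 5 each. On either strand, TTTGAA occurs in 4893 of 27025 promoters (18.1%), in 18 of the 40 cell cycle genes with a promoter in the table, and in 11 of the 15 of these that were lower without overlap (73.3%). ATTGG occurs in 10248 promoters (37.9%), in 29 of the 40 (72.5%) and in 14 of the 15 (93.3%). Among the 11325 promoters of genes tested the shares were 11.9% for TTTGAA and 38.0% for ATTGG. These are letter matches, not sites shown to be bound.

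Genes of α, δ and PP cells were mostly lower at 25 weeks. The 17 genes of the list, all tested, had a median log2 fold change of -0.93 (-1.05 without the 8-week replicate 1, -0.46 in heterozygous islets). In wild type 8 were lower without overlap and 1 higher, in heterozygous islets 7 and 1, and 5 were lower in both. DESeq2 called 5 lower in wild type. The summed level of the list was 17420, 31690 and 35480 CPM at 8 weeks and 13600, 12920 and 10890 CPM at 25 weeks, so that the 8-week replicates 3 and 4 were highest.

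Gcg, which encodes glucagon, had 11000, 24460 and 27730 CPM at 8 weeks and 7458, 8558 and 7874 CPM at 25 weeks (log2 fold change -1.40 ± 0.58, adjusted p = 0.408; 0.0141 in DESeq2). Heterozygous islets had 9271, 7451 and 8986 CPM and then 9546 and 5081 CPM, which overlap. Only the wild-type 8-week replicates 3 and 4 exceeded the others by a wide margin. Ppy, pancreatic polypeptide, had 2450, 3121 and 3599 CPM and then 2337, 1549 and 679 CPM (-1.01 ± 0.50). Sst, somatostatin, had 2038, 1975 and 1902 CPM and then 1961, 1235 and 1062 CPM, which overlap (-0.47 ± 0.36). Ghrl, the ghrelin gene of ε cells, had 9.62, 14.8 and 7.99 CPM and then 1.06, 2.77 and 0.741 CPM (-2.77 ± 0.54, adjusted p = 0.364), and overlapped in heterozygous islets.

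Rbp4, the retinol carrier, had 64.9, 93.9 and 112 CPM and then 53.1, 39.3 and 36.7 CPM (-1.07 ± 0.27, adjusted p = 0.364) and was also lower without overlap in heterozygous islets. Irx1, a homeobox factor (-1.40 ± 0.38), Ttr, transthyretin (-0.93 ± 0.30), and Tspan8 (-0.96 ± 0.24) were lower in each 25-week library. Lepr, the leptin receptor, was the member higher without overlap in both genotypes, with 1.14, 1.22 and 0.986 CPM and then 2.55, 1.31 and 2.15 CPM in wild type (0.82 ± 0.44).

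The insulin genes overlapped between the ages. Ins1 had 39320, 37380 and 26770 CPM and then 46170, 31770 and 25680 CPM, and Ins2 had 118000, 132700 and 82270 CPM and then 136600, 103600 and 78840 CPM. Of the 17 hormone and processing genes, 4 were lower without overlap and 0 higher, with a median of -0.29. Those 4 were Gcg, Ghrl, Ppy and Pcsk1n.

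Most genes of the mature β cell were higher at 25 weeks than in the 8-week replicates 3 and 4. The 8 genes of the list had a median of 0.44 (0.77 without the 8-week replicate 1, -0.01 in heterozygous islets), with 3 higher without overlap and 0 lower. Without the 8-week replicate 1, 7 were higher without overlap and 1 lower (Neurod1, an islet transcription factor, with 136, 274 and 249.8 CPM at 8 weeks and 192, 162 and 143 CPM at 25 weeks), and edgeR called 3 higher and 0 lower. Of all genes tested, 25.0% were higher and 25.2% lower without overlap there, and edgeR called 3.71% and 6.09%. Without the 8-week replicate 1 and the 25-week replicate 2 edgeR called 5 higher and 1 lower, against 16.1% and 16.7% of all genes. Ucn3, urocortin 3, a hormone that appears as β cells mature, had 313, 189 and 186 CPM at 8 weeks and 436, 386 and 332 CPM at 25 weeks (log2 fold change 0.74 ± 0.29, adjusted p = 0.402). Without the 8-week replicate 1 Ucn3 rose (1.03, adjusted p = 0.0379). The 8-week replicates 3 and 4, left in that fit, had interferon-induced genes at a sum of 5620 and 6095 CPM. Replicate 1 had 359 CPM and the 25-week libraries 325.6 to 340.4 CPM. In that fit age and this difference cannot be told apart. Nkx2-2, an islet homeobox factor, had 93.9, 54.7 and 57.9 CPM and then 112, 112 and 103 CPM (0.66 ± 0.25, adjusted p = 0.402; 0.0238 without the 8-week replicate 1). Pax6, another islet transcription factor, had 266, 299.6 and 309 CPM and then 319, 399.5 and 345 CPM (0.28 ± 0.23).

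Mafa, a β cell factor that drives insulin transcription, overlapped, with 138, 25.3 and 39.5 CPM at 8 weeks and 53.1, 127 and 116 CPM at 25 weeks (0.55 ± 0.62, adjusted p = 0.711). Replicate 1 at 8 weeks and replicates 3 and 4 at 25 weeks were high, as were the heterozygous libraries at both ages (93.5 to 162 CPM). Slc2a2, the glucose transporter GLUT2, had 693, 301 and 273 CPM and then 966, 865 and 750.5 CPM (1.03 ± 0.41, adjusted p = 0.403; 0.0175 without the 8-week replicate 1). It was the 1 gene of 20 in the glucose sensing and excitability list that was higher without overlap, with 0 lower, and the list's median was 0.32 (0.11 in heterozygous islets). G6pc2, a glucose-6-phosphatase of islets, had 1046 to 1846 CPM and then 1081 to 2038 CPM, and Ero1lb, an oxidase of the endoplasmic reticulum, 1249 to 1462 CPM and then 1321 to 1622 CPM.

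Of 15 markers of immature or dedifferentiated β cells, 9 passed the filter on low counts, with a median of -0.49, 3 lower without overlap (among them Rbp4 and Neurog3) and 1 higher. The higher one was Aldh1a3, a retinaldehyde dehydrogenase known from failing β cells, with 2.57, 3.38 and 1.23 CPM and then 4.88, 5.32 and 3.93 CPM (0.97 ± 0.44, adjusted p = 0.418). Vim, vimentin, overlapped, with 28.7 to 34.4 CPM and then 29.2 to 76.2 CPM. The 18 genes held low in mature β cells had a median of -0.25 (0.06 without the 8-week replicate 1, -1.04 in heterozygous islets), with 2 higher (Cxcl12 and Pdgfra) and 1 lower (Oat) without overlap. Among the most abundant of them Ldha, lactate dehydrogenase, had 10.8 to 57.0 CPM and then 19.3 to 33.0 CPM and C1qbp 24.2 to 33.1 CPM and then 20.0 to 27.2 CPM.

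Interferon-induced genes, which cells transcribe on viral or interferon signals, were high in 2 of the 3 wild-type libraries at 8 weeks and low in the other wild-type and all heterozygous libraries. The summed level of the 34 genes was 359, 5620 and 6095 CPM at 8 weeks and 329, 340.4 and 326 CPM at 25 weeks. The heterozygous libraries had 260.1 to 348 CPM at both ages, and βEedKO islets at 8 weeks had 291, 8350 and 8822 CPM. The list's median log2 fold change was -2.88 in wild type, -3.39 without the 8-week replicate 1 and 0.16 in heterozygous islets. At an unadjusted p under 0.05 edgeR had 33 of the 34 lower, DESeq2 called 28 lower, and 14 (41.2%) were lower without overlap.

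Ifit1, an antiviral protein that binds foreign RNA, shows the split. It had 6.40, 1294 and 1294 CPM at 8 weeks and 8.07, 7.65 and 8.37 CPM at 25 weeks, so that the 8-week replicate 1 lay below the 25-week libraries. Rsad2, or viperin, had 14.8, 932 and 1086 CPM and then 10.2, 18.8 and 20.96 CPM. The log2 fold changes, -6.75 ± 1.59 for Ifit1 and -5.33 ± 1.31 for Rsad2 (both adjusted p = 0.364), therefore rest on 2 libraries. Oas3, an oligoadenylate synthetase, was lower at 25 weeks than in every 8-week library, with 2.45, 3.05 and 4.88 CPM and then 0.212, 0.218 and 0.0741 CPM (-4.37 ± 0.61, adjusted p = 0.254). Rtp4 (-5.12 ± 1.06), the GTPase Igtp (-2.74 ± 0.55) and Ifi44 (-2.48 ± 0.52) also did not overlap.

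Near copies of Ifit1 had the same order. Ifit1bl1 had 4.96, 18.1 and 22.6 CPM and then 0.212, 0.218 and 0.222 CPM (-6.07 ± 0.72, adjusted p = 0.178), and Ifit1bl2 2.45, 5.04 and 4.93 CPM and then 0, 0.437 and 0.148 CPM. How reads were divided between such copies is uncertain, as for Apol9a, which had 1.31, 2.22 and 2.56 CPM and then 0.212, 0 and 0 CPM. In all 3 genes the 8-week replicate 1 was the lowest of its age and still above the 25-week libraries.

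**Figure D3:**
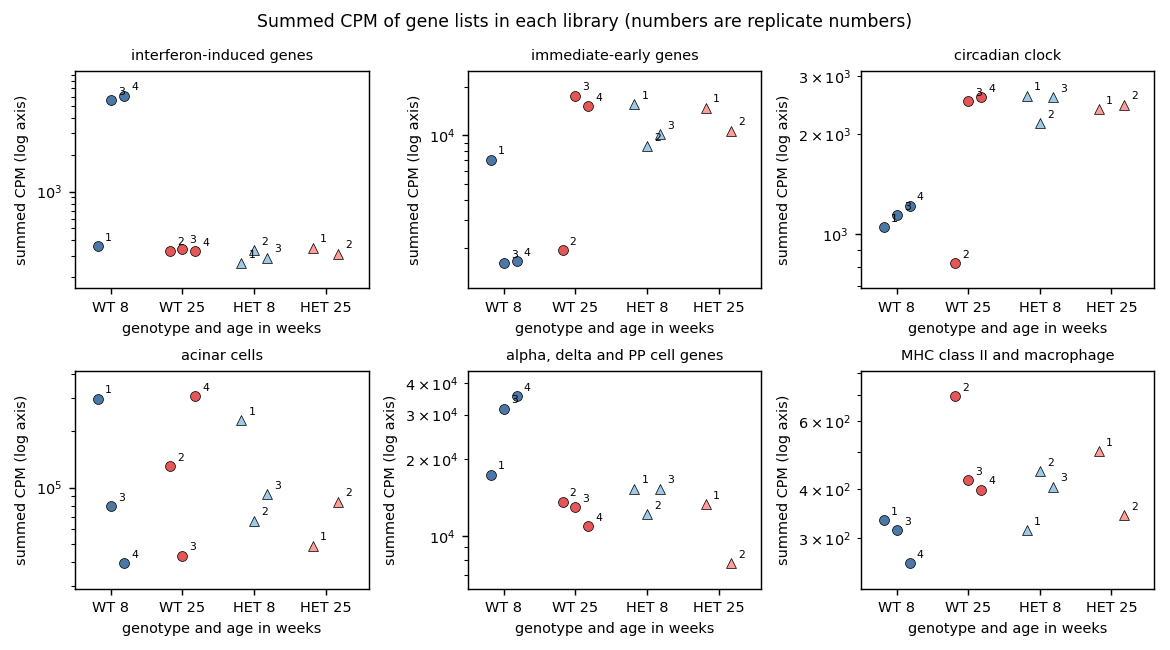
Summed CPM (log axis) of 6 gene lists in each library, with the replicate number beside each point (circles, wild type; triangles, heterozygous; blue, 8 weeks; red, 25 weeks). The interferon-induced genes are high in the wild-type 8-week replicates 3 and 4 among the libraries drawn, and the immediate-early and clock genes are high in the wild-type 25-week replicates 3 and 4 and in the heterozygous libraries.

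Promoters of such genes are known for the interferon-stimulated response element, and 2 are shown because their genes did not overlap between the ages. The window and source are as above, and capitals mark GAAA, any 2 bases and GAAA again, or on the opposite strand TTTC, any 2 bases and TTTC. Oas3 is at chr5:120777610-120777909 and Ifit1bl1 at chr19:34601919-34602218, both on the minus strand.
Oas3: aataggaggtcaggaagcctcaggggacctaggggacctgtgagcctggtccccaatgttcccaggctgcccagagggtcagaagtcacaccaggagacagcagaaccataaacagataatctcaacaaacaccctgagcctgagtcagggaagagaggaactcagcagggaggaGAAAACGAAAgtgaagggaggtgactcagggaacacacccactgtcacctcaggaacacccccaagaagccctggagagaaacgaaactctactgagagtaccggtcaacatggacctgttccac
Ifit1bl1: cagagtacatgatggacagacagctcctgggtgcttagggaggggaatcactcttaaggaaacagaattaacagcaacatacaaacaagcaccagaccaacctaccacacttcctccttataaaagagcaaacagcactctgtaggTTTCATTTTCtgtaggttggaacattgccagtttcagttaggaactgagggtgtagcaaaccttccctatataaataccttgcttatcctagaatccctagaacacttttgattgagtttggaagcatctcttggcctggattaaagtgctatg

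On either strand the element occurs in 943 of 27025 promoters (3.49%), and in 340 of 11325 promoters of genes tested (3.0%). It occurs in 14 of the 23 interferon-induced genes with a promoter in the table (60.9%). Of these, 10 were lower without overlap, and 5 of the 10 held it (50.0%). It occurs in 1 of the 40 cell cycle genes (2.5%). The same libraries were high in genes of antigen presentation and chemokines. Tap1, the peptide transporter of MHC class I loading, had 20.4, 101 and 123 CPM and then 12.5, 16.2 and 18.2 CPM (-2.37 ± 0.59, adjusted p = 0.369). The class I heavy chains overlapped, H2-D1 with 270.1, 413 and 464 CPM and then 252, 283 and 279 CPM and H2-K1 with 308, 455 and 503 CPM and then 283, 332 and 325 CPM. Of the 17 class I genes 3 were lower without overlap and 0 higher (median -0.71, 0.10 in heterozygous islets). Cxcl10, a chemokine induced by interferon, had 1.61, 957 and 969.5 CPM and then 1.49, 12.2 and 12.5 CPM. The 17 inflammatory signalling genes tested had a median of -0.84 with 0 lower and 0 higher without overlap, and Il1r1, an interleukin 1 receptor, had 406 to 693 CPM and then 472 to 700.3 CPM.

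Many of the MHC class II and macrophage genes were higher at 25 weeks without overlap. Of 23 genes 22 were tested, with a median of 0.76 (0.87 without the 8-week replicate 1, 0.18 in heterozygous islets), 11 (50.0%) higher without overlap and 1 lower. The summed level was 333, 314 and 257 CPM at 8 weeks and 698, 422 and 399 CPM at 25 weeks, so the shallow 25-week replicate 2 was highest. In heterozygous islets it was 314, 446 and 407 CPM and then 502 and 342 CPM, which overlap. DESeq2 called Aif1 higher and Cd14 lower in wild type.

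Cd74, the invariant chain of class II molecules, had 99.2, 69.6 and 69.0 CPM and then 162, 116 and 123 CPM (0.76 ± 0.24, adjusted p = 0.376). H2-Aa, a class II chain, had 37.2, 36.8 and 34.1 CPM and then 101, 43.5 and 46.0 CPM (0.81 ± 0.34), and Itgax, or CD11c, 2.39, 0.942 and 1.38 CPM and then 5.52, 3.93 and 4.15 CPM (1.51 ± 0.45). In these genes too the 25-week replicate 2 was highest. The macrophage gene Aif1 had 0.299, 0.443 and 0.148 CPM and then 3.19, 1.46 and 1.11 CPM (2.60 ± 0.66, adjusted p = 0.369; 0.0431 in DESeq2), and Mrc1, the mannose receptor, 0.957, 1.61 and 0.690 CPM and then 9.77, 2.48 and 2.52 CPM (2.12 ± 0.67). Cd14, the lipopolysaccharide co-receptor, was the lower one, with 9.74, 13.2 and 9.81 CPM and then 2.12, 3.93 and 4.30 CPM (-1.63 ± 0.34, adjusted p = 0.364; 0.00441 in DESeq2).

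In wild type, antibody genes had more reads at 25 weeks and in the 8-week replicate 1 than in the other 8-week libraries. Of 18 T and B lymphocyte genes 9 were tested, with a median of 0.73 (1.87 without the 8-week replicate 1, 0.43 in heterozygous islets), 6 above 0 and 3 below. Ighm was higher without overlap and Ccr7, a chemokine receptor of lymphocytes, lower (1.495, 1.11 and 0.838 CPM and then 0.637, 0.291 and 0 CPM; -2.18 ± 0.93, adjusted p = 0.409), while Cd3e, Cd4, Cd8a and Ms4a1, which define T and B cells, did not pass the filter on low counts. Ighm, the μ heavy chain, had 20.9, 0.166 and 1.08 CPM and then 191, 33.7 and 31.5 CPM (3.53 ± 1.46, adjusted p = 0.408). Igkc, the κ light chain, had 24.5, 0.222 and 0.888 CPM and then 244, 21.3 and 15.5 CPM, which overlap. Summed over 395 immunoglobulin genes, a group formed after the values were seen, the libraries had 86.6, 1.39 and 4.16 CPM (here without TMM factors) at 8 weeks and 729.0, 105.0 and 53.6 CPM at 25 weeks. All 25-week values were above the 8-week replicates 3 and 4, and replicate 1 lay above the 25-week replicate 4 and below the others. Ighg2c had 0.179, 0 and 0 CPM and then 31.9, 8.52 and 1.56 CPM, and Igkv4-70 had 0 reads in each 8-week library and 1.27 to 2.52 CPM at 25 weeks, at least 12.6-fold higher against a floor of 3 reads per library. Heterozygous islets did not show this rise, with 0 CPM of both genes at 8 weeks and 0 to 0.0566 CPM at 25 weeks. The summed lymphocyte list overlapped there (29.59, 18.05 and 31.07 CPM and then 35.26 and 23.89 CPM).

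Several endothelial genes were higher at 25 weeks in both genotypes. Of 16 tested 6 were higher without overlap and 0 lower, with a median of 0.28 (0.25 in heterozygous islets, with 4 higher and 0 lower), and 3 were higher in both. Kdr, the VEGF receptor of endothelium, had 73.3, 45.4 and 69.5 CPM and then 86.7, 126 and 120.0 CPM (0.82 ± 0.26, adjusted p = 0.376), and heterozygous islets 86.1, 104 and 104 CPM and then 137 and 151 CPM. Plvap, of the fenestral diaphragm, had 78.1, 53.1 and 73.4 CPM and then 100.5, 96.9 and 98.2 CPM (0.53 ± 0.21), and it too did not overlap in heterozygous islets. Tek, the angiopoietin receptor (1.36 ± 0.31), and Ptprb, an endothelial phosphatase (1.12 ± 0.28), passed DESeq2 in wild type (adjusted p = 0.0141 and 0.0399).

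Matrix genes of fibroblasts and pericytes were partly higher at 25 weeks in wild type, with 11 of 30 higher without overlap and 1 lower (median 0.19, 0.51 without the 8-week replicate 1). Dcn, decorin, had 7.89, 10.5 and 4.44 CPM and then 50.1, 18.7 and 23.1 CPM (2.00 ± 0.47, adjusted p = 0.364; 0.00507 in DESeq2). Lum, lumican (1.99 ± 0.50), and Postn, periostin (1.70 ± 0.46), also passed DESeq2. The pericyte gene Rgs5 (91.2 to 108 CPM and then 78.3 to 124 CPM) and the basement membrane collagen Col4a1 (86.9 to 137 CPM and then 78.6 to 104 CPM) overlapped. In heterozygous islets 1 matrix gene was higher and 4 lower, with a median of -0.36 (0.41 without the 8-week replicate 2). That library also stood apart in the 12 adipocyte genes, with a sum of 4946 CPM against 186.0 to 427.0 CPM in the other heterozygous libraries. Without it the heterozygous median of the adipocyte list was 1.55 in place of -3.48, and that of the genes held low in mature β cells -0.08 in place of -1.04.

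Exocrine genes varied by library in both ages. The summed level of the acinar list was 297500, 79530 and 39410 CPM at 8 weeks and 129600, 43380 and 307000 CPM at 25 weeks. Of 33 genes 3 were lower without overlap and 0 higher, with a median of 0.22 that was 1.38 without the 8-week replicate 1. Ctrb1, a chymotrypsinogen, had 7798 to 39860 CPM and then 6858 to 51320 CPM, and Pnlip, pancreatic lipase, 4116 to 25960 CPM and then 4485 to 30750 CPM. Against this spread the trypsinogen gene Gm5771 (chromosome 6, 41392356 to 41397230) had 200.1, 118 and 180.0 CPM at 8 weeks and 1.06, 1.31 and 5.63 CPM at 25 weeks (-5.86 ± 0.65, adjusted p = 0.167; 1.99e-22 in DESeq2). Heterozygous islets had 1.06 to 10.2 CPM at both ages, and βEedKO islets 3.56, 15.6 and 10.2 CPM at 8 weeks and 376 and 230.5 CPM at 25 weeks. Its relative Prss1 had 8.07, 5.10 and 16.3 CPM and then 1.06, 0.218 and 1.41 CPM (-3.48 ± 0.71). Both belong to a family of near-identical genes, and how their reads were divided is uncertain.

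The Reg genes, secreted proteins of acinar cells, also followed the library, with Reg1 at 10420, 1524 and 529.7 CPM and then 4667, 639.9 and 4441 CPM and Reg2 at 2053, 153 and 17.9 CPM and then 346, 21.2 and 94.7 CPM. The 6 tested had a median of -1.29 that was 1.51 without the 8-week replicate 1, with 0 genes without overlap in either direction. Of 14 duct genes tested 4 were lower without overlap and 0 higher (median -0.78). Krt19, the duct keratin, had 65.8, 14.9 and 15.0 CPM and then 4.88, 1.89 and 5.33 CPM (log2 fold change -3.003 ± 0.71, adjusted p = 0.364), and Lcn2, lipocalin 2, had 5.5, 4.04 and 2.27 CPM and then 0.637, 0.218 and 0.667 CPM (-2.99 ± 0.59). The epithelial keratins Krt8 (294 to 1570 CPM and then 106 to 957 CPM) and Krt18 (189.5 to 782 CPM and then 120.4 to 432 CPM) overlapped. Of 11 adipocyte genes tested 1, Cfd, or adipsin, was higher without overlap, with 0.179, 0.166 and 1.04 CPM and then 2.76, 7.21 and 21.04 CPM (4.45 ± 0.96, adjusted p = 0.364), and the median was 2.04. Fabp4 (11.0 to 71.5 CPM and then 69.5 to 136 CPM) and Lpl (161 to 232 CPM and then 217 to 223 CPM) overlapped.

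Immediate-early genes, transcribed within minutes of a stimulus, were high in 2 of the 25-week libraries. The summed level of the 23 genes was 7079, 1622 and 1664 CPM at 8 weeks and 1956, 17570 and 15160 CPM at 25 weeks, and 8577 to 15620 CPM in the heterozygous libraries of both ages. Fos had 1837, 52.9 and 56.2 CPM and then 515, 2927 and 2036 CPM, and Fosb 1142, 59.1 and 78.1 CPM and then 193, 4055 and 3755 CPM. The list's median was 1.52 in wild type and 0.02 in heterozygous islets, and 0 genes were without overlap in either direction. Without the 8-week replicate 1 the median was 2.46, and 7 of the 23 genes were higher without overlap and 0 lower. Of all genes tested, 25.0% were higher and 25.2% lower in this way, so the 7 are not read as a result about the list. The 19 clock genes summed to 1050, 1145 and 1222 CPM and then 820.0, 2516 and 2584 CPM, and to 2157 to 2614 CPM in heterozygous islets. Per1 had 106, 36.6 and 52.6 CPM and then 26.3, 457 and 438 CPM, and Cry2 198, 83.8 and 88.0 CPM and then 118, 476 and 459.7 CPM, so that the 25-week replicate 2 was like the 8-week libraries. Of the clock list 1 gene was higher without overlap and 0 lower (median 0.54).

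**Figure D4:**
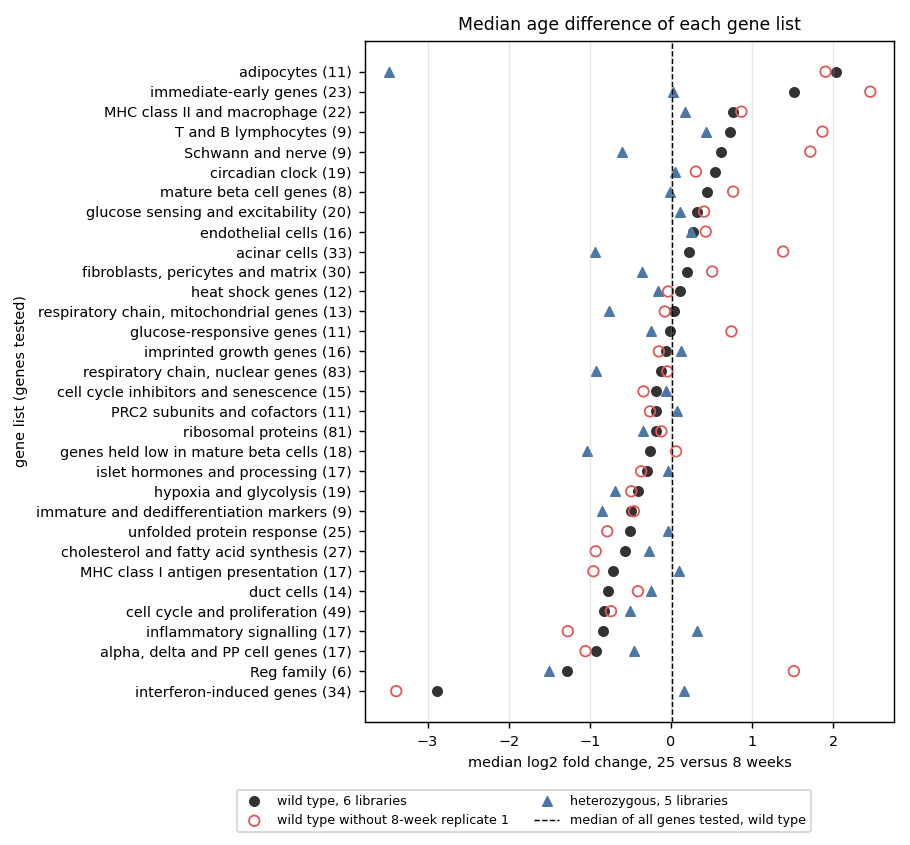
Median log2 fold change between 25 and 8 weeks of each gene list (number of genes tested in parentheses), in the 6 wild-type libraries (filled circles), without the 8-week replicate 1 (open circles) and in the 5 heterozygous libraries (triangles); the dashed line is the median of all genes tested. The interferon list is lowest in wild type, at -2.88, and near the line in heterozygous islets, while the cell cycle list (-0.83 and -0.50) and the α, δ and PP list (-0.93 and -0.46) are below it in both.

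Genes of the unfolded protein response and of lipid synthesis varied between libraries of an age. Of 25 unfolded protein response genes and 27 genes of cholesterol and fatty acid synthesis, 0 were without overlap in either direction, with medians of -0.51 and -0.57. Hspa5, the chaperone BiP, had 1707, 5440 and 4588 CPM and then 1037, 3294 and 2952 CPM, and Hsp90b1, another chaperone of the endoplasmic reticulum, 823, 2267 and 1939 CPM and then 836, 1467 and 1358 CPM. In both of these the 8-week replicate 1 and the 25-week replicate 2 were the lowest of their age. Acly, which makes acetyl-CoA for lipids, had 946 to 1398 CPM and then 973 to 1589 CPM.

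Of 19 hypoxia and glycolysis genes 4 were lower without overlap and 0 higher (median -0.41). Among them Pgk1, phosphoglycerate kinase, had 39.8, 104 and 84.6 CPM and then 35.7, 32.3 and 32.3 CPM (-1.19 ± 0.34, adjusted p = 0.376), while Pkm (519 to 543 CPM and then 483 to 578 CPM) and Aldoa (294 to 489.7 CPM and then 322 to 358 CPM) overlapped. Of 12 heat shock genes 2 were lower without overlap and 0 higher (median 0.11, -0.04 without the 8-week replicate 1), among them Hspb1, a small heat shock protein (26.2, 50.2 and 56.3 CPM and then 11.3, 17.0 and 19.6 CPM; -1.46 ± 0.34, adjusted p = 0.364). Hsp90aa1 had 307, 1319 and 1248 CPM and then 279, 492 and 449.5 CPM, and Hspa8 616 to 679.6 CPM and then 489 to 707 CPM, and both overlapped. Of 11 glucose-responsive genes 1, Arrdc4, was lower without overlap (median -0.01, 0.74 without the 8-week replicate 1), and Mlxipl, or ChREBP, had 499.7, 151 and 227 CPM and then 439, 556 and 548 CPM.

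In wild type, ribosomal protein and respiratory chain genes had median log2 fold changes of -0.19 to 0.04. Of 81 ribosomal protein genes 4 were lower without overlap and 0 higher (median -0.19), where heterozygous islets had 73 lower and 1 higher (median -0.35). Rps27rt, a near copy of Rps27 whose share of the reads is uncertain, was lower without overlap in wild type and the 1 higher in heterozygous islets (26.5, 39.8 and 27.8 CPM and then 23.6, 16.2 and 16.8 CPM, and 13.5, 15.9 and 15.9 CPM and then 16.3 and 17.6 CPM in heterozygous islets). Rpl4 had 718 to 928 CPM and then 539 to 865 CPM, and Rpl10 378 to 526 CPM and then 319.9 to 593 CPM. Of 83 nuclear genes of the respiratory chain 5 were lower and 0 higher (median -0.12), with Atp5a1 at 479 to 574 CPM and then 423 to 445 CPM and Atp5b at 416 to 528 CPM and then 380.1 to 433 CPM. Of the 13 mitochondrial genes 1 was lower and 0 higher (median 0.04), with mt-Co1 at 6622 to 8898 CPM and then 6408 to 8225 CPM and mt-Cytb at 4423 to 6300 CPM and then 4006 to 8661 CPM. In heterozygous islets 56 of the 83 nuclear genes (67.5%) and 8 of the 13 mitochondrial genes were lower without overlap and 0 higher, with medians of -0.92 and -0.76, which were -0.26 and -0.15 without the heterozygous 8-week replicate 2. Among 9 genes of Schwann cells and nerve 0 were without overlap (median 0.61, 1.72 without the 8-week replicate 1), with Mbp, of myelin, at 65.4 to 213 CPM and then 67.4 to 75.4 CPM.

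The 11 genes of PRC2 and its cofactors had a median of -0.18, with 1 higher and 1 lower (Phf19) without overlap. That is 9.09% each, near the 8.27% and 7.9% of all genes tested, and is not read as a result about the list. Ezh2, the methyltransferase, had 8.61, 5.98 and 4.09 CPM and then 3.82, 4.37 and 4.22 CPM (-0.58 ± 0.35, adjusted p = 0.51). Eed, with the values given above, differed by -0.31 ± 0.24 on the log2 scale (adjusted p = 0.586). Both overlapped between the ages, as did the histone-binding subunits Rbbp4 (102 to 124 CPM and then 98.3 to 106 CPM) and Rbbp7 (111 to 159.6 CPM and then 104 to 168 CPM). The higher gene was Jarid2, a cofactor that brings the complex to its targets, with 24.6, 19.4 and 17.4 CPM and then 27.0, 37.8 and 35.0 CPM (0.70 ± 0.23, adjusted p = 0.377). It was higher without overlap in heterozygous islets too, as were 15.8% of all genes tested.

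Cdkn2a, which encodes the cell cycle inhibitors p16 and p19, had 4, 4 and 8 reads at 8 weeks and 3, 5 and 3 reads at 25 weeks. It did not pass the filter on low counts, and at this depth no difference was detectable. Of the 16 cell cycle inhibitor and senescence genes 15 were tested, with a median of -0.18, 1 higher and 1 lower (Cdkn2b) without overlap. That is 6.67% each, below the 8.27% and 7.9% of all genes tested. The higher one was Bmi1, a subunit of Polycomb repressive complex 1 known to repress Cdkn2a, with 49.1, 72.7 and 61.6 CPM and then 99.8, 92.6 and 79.4 CPM (0.57 ± 0.22, adjusted p = 0.402), and it did not overlap in heterozygous islets either. Ccng1, cyclin G1 (68.0 to 136 CPM and then 56.4 to 89.8 CPM), and Igf1r, the receptor of insulin-like growth factor 1 (55.2 to 135 CPM and then 73.9 to 99.8 CPM), overlapped.

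Of 18 imprinted growth genes 16 were tested, with a median of -0.06, 1 higher and 2 lower (Dlk1 and Rian) without overlap. Dlk1, a Notch-related protein of growing tissue, had 3.35, 3.99 and 7.59 CPM at 8 weeks and 0.637, 0.437 and 0.518 CPM at 25 weeks (-3.26 ± 0.50, adjusted p = 0.274; 0.000168 in DESeq2). Heterozygous islets had 1.02, 1.08 and 0.803 CPM and then 1.11 and 1.25 CPM, so that every one of them lay below the wild-type 8-week libraries and above the 25-week ones. Igf2, the fetal growth factor, was higher, with 8.85, 6.37 and 5.62 CPM and then 14.2, 9.54 and 9.33 CPM (0.66 ± 0.31), and it was higher without overlap in heterozygous islets too (3.93, 5.27 and 3.68 CPM and then 14.1 and 8.44 CPM). Peg3 had 1652, 934 and 1398 CPM and then 1528, 3870 and 3571 CPM (1.17 ± 0.47) and Meg3 862, 529 and 939 CPM and then 909.5, 1229 and 1172 CPM (0.51 ± 0.34), and both overlapped.

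Of the remaining genes that met the rule for naming, some were high at 25 weeks in wild type. Bmpr1b, a receptor for bone morphogenetic proteins, had 2.81, 1.88 and 1.48 CPM and then 10.6, 6.85 and 8.96 CPM (2.09 ± 0.37, adjusted p = 0.354), and was without overlap in heterozygous islets too (4.81, 1.47 and 3.68 CPM and then 13.2 and 7.08 CPM). BC051142 also kept apart in both genotypes (1.37 ± 0.24 in wild type). Kcnh5, a voltage-gated potassium channel, had 0.239, 0.332 and 0.148 CPM and then 2.12, 3.35 and 2.59 CPM (3.47 ± 0.51, adjusted p = 0.261), and its heterozygous libraries had 1.27 to 3.06 CPM at both ages, above every wild-type 8-week library. The same was seen in Zfp184 (1.95 ± 0.37), with 3.32 to 4.36 CPM and then 8.07 to 18.8 CPM in wild type and 12.6 to 19.7 CPM in heterozygous islets. Nol3, an inhibitor of apoptosis, had 3.29, 3.27 and 2.07 CPM and then 11.7, 8.01 and 8.52 CPM (1.70 ± 0.33). Its heterozygous values overlapped, with 4.74, 13.56 and 6.03 CPM and then 7.62 and 7.13 CPM. Scara5, a ferritin receptor, had 0, 0 and 0.0493 CPM and then 0.850, 2.11 and 1.78 CPM. It too overlapped in heterozygous islets, with 0.135, 4.40 and 0.134 CPM and then 0.582 and 0.0566 CPM.

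Others were low at 25 weeks in wild type and at both ages in heterozygous islets. Itgb6, an epithelial integrin that activates TGF-β, had 2.93, 11.7 and 10.3 CPM and then 0.637, 0.947 and 0.445 CPM (-3.59 ± 0.63, adjusted p = 0.354), and 0.453 to 0.745 CPM in heterozygous islets. C4bp, a complement regulator, had 3.35, 1.44 and 1.92 CPM and then 0, 0.146 and 0.0741 CPM, and 0.0566 to 0.389 CPM in heterozygous islets. St14, the membrane protease matriptase, had 39.8, 72.2 and 84.9 CPM and then 18.7, 22.9 and 24.8 CPM (-1.56 ± 0.30), and 18.7 to 23.2 CPM in heterozygous islets. Prag1 (-2.19 ± 0.30), the galectin Lgals9 (-1.82 ± 0.31) and the ubiquitin ligase Neurl3 (-1.65 ± 0.30) had the same order, with each wild-type 8-week library above each heterozygous one. These 6 genes passed DESeq2 in wild type and none passed edgeR there.

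By chromatin state at the start site, the median wild-type age difference was small. The 6238 genes in the active state A had a median log2 fold change of -0.06, with 5.98% higher and 6.83% lower without overlap. The 2382 genes in the bivalent states L and M had a median of 0.04, with 9.91% higher and 8.9% lower. The 710 genes in the Polycomb states N and O had a median of 0.11, with 11.3% higher and 6.34% lower, and over all 13888 genes with a state the shares were 7.87% and 7.38%. Without the 8-week replicate 1 the median of L and M was 0.25. It was 0.435 in N and O, 0.158 in B, -0.093 in A, 0.264 in the other states and 0.051 over all states, so a rise was not particular to L and M. In heterozygous islets the median of L and M was -0.08, against -0.036 over all states.

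In heterozygous islets alone edgeR called 0 of 17140 genes higher and 0 lower (0.0% each), with 306 (1.79%) higher and 315 (1.84%) lower at an unadjusted p under 0.05. The difference between the age effects of the genotypes, heterozygous minus wild type, was called by edgeR for 0 genes in either direction (0.0%), with 646 (3.77%) above and 287 (1.67%) below at an unadjusted p under 0.05. No overlap in opposite directions in the 2 genotypes was seen in 87 of 15554 genes (0.559%). DESeq2 called 26 genes for heterozygous islets and 15 for the difference. Without the wild-type 8-week replicate 1, edgeR called this difference for 681 of 16893 genes (4.03%) above and 234 (1.39%) below, so its count rests on that library. With all libraries edgeR called no gene in wild type and none for the difference, which does not show the age effects to be alike. Among the 15 that DESeq2 called for the difference were Dlk1, Prag1 and Kcnh5, which it also called in wild type.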

How the data were processed

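Bulk RNA-seq of whole islets gave 6 wild-type libraries (3 at each age) and, for comparison, 5 heterozygous and 5 βEedKO libraries. The authors aligned the paired reads to GRCm38 with TopHat (2.0.13) and counted them per gene with featureCounts (Subread 1.5.0-p1), and they deposited raw read counts for 47937 genes; the strand setting was not given in the sources used here. The authors also deposited chromatin states (letters, EpicSeg on averaged replicates), used as state at the start site. Symbols and positions came from Gencode M21 on the same build (47310 genes matched, 25640 with a state).

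Counts were tested with edgeR (4.0.16, R 4.3.3) by the quasi-likelihood test after TMM scaling and the filterByExpr filter, with Benjamini-Hochberg adjustment at 0.05. A standard error is the log2 fold change divided by the root of its F statistic. CPM of wild type were scaled over its 6 libraries, of heterozygous islets over 11 and of βEedKO over 16, so levels set across genotypes are approximate, and CPM were not divided by gene length. DESeq2 (1.42.0), limma (3.58.1), other filters and scalings, a replicate block and leaving out each library were alternatives. Only the main wild-type edgeR fit was tried on simulated counts with known fold changes, and its outcome is not reported here. Those counts held no outlying library, and the other fits were not simulated. Depth was 4645393 to 18862300 reads per wild-type library, and floors of 3 reads cover counting error only.

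Named genes were 15 higher and 15 lower genes without overlap and with a mean of 1 CPM or more at an age. A ranking by size of change was planned for genes that passed. Since none passed, these were taken by smallest p in the wild-type edgeR fit. The 2 most abundant members of each list, preset genes and further list members were named as well. The members, lists and tests were chosen with earlier results of these data known, and single list members named beside a small count were chosen after their values were seen. Results of some list members are not reported here.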

Additional observations from a re-analysis of the deposited data

Results flagged for a closer look

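In 87 of the 15554 genes tested in wild type (0.559%) the ages did not overlap in either genotype and every wild-type library moved in one direction with age and every heterozygous library in the other. Of these, 6 belong to a gene list. The age difference, heterozygous minus wild type on the log2 scale, was 3.57 for Dlk1, 3.79 for Ifi44, 5.60 for Lcn2, 4.10 for Oasl2, 4.83 for Ccr7 and 0.94 for Rps27rt. Each was lower at 25 weeks in wild type and higher in heterozygous islets. The test of the difference passed in DESeq2 for Dlk1, Ifi44, Lcn2 and Oasl2 (adjusted p = 0.018, 0.0417, 0.018 and 0.0213), not for Ccr7 and Rps27rt, and in edgeR for none of the 6 (adjusted p = 0.777 for each). Ccr7 had 0 to 25 reads in each wild-type library.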

How the results depend on the processing

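The wild-type comparison depended on the fit. Where edgeR called 0 genes, DESeq2 called 298, limma-voom with sample weights 4792 and edgeR's likelihood ratio test, added after the data were seen, 223. The sample weights were 0.194 for the 8-week replicate 1, 0.406 for the 25-week replicate 2 and 1.2 to 2.85 for the other libraries. The weighted fit is thus close to leaving those 2 libraries out. Scaling by library size alone gave 3 calls (Gm5771, Ifit1bl1 and Snhg11), testing all genes with a count 5 (these 3, Barhl1 and Igf2bp2), and 1 fit over 16 libraries 4 (Barhl1, C4bp, Gm5771 and Snhg11). One age effect over wild-type and heterozygous islets gave 15. Other scalings, a 1 CPM filter, a fit with βEedKO, thinning to the smallest library and a robust fit gave 0. Leaving out each library gave 0 to 1563 calls. The highest count was without the 8-week replicate 1, leaving out the 25-week replicate 4 gave 1 (Gm5771), and leaving out both libraries that stood apart, added after the data were seen, gave 5162. Of the genes in a list or named, the same fits called 102 (DESeq2), 300 (sample weights), 90 (likelihood ratio), 3 (library size), 5 (all genes with a count), 4 (16 libraries), 15 (one age effect), 333 (without both libraries) and 0 to 154 (each library left out). In heterozygous islets DESeq2 called 26 genes and leaving out each library gave 0 to 1 (Xlr3b, without the 25-week replicate 2). For the difference between genotypes DESeq2 called 15, and leaving out each library gave 0 to 915, with 915 without the wild-type 8-week replicate 1, 2 without the wild-type 25-week replicate 2 and 1 without the heterozygous 25-week replicate 2. The median of the bivalent states, 0.039, was -0.032 to 0.251 with each library left out and 0.208 without both. The cause of these shifts was not tested. Of 148 genes named, 125 kept the sign of their log2 fold change in every alternative.

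Replicate numbers did not pair the samples. The ages share only the numbers 3 and 4, whose libraries had correlations of 0.00507 and 0.102 of their deviations from the group means, and other pairs -0.357 to 0.458. With the replicate block edgeR called 4252 genes, 301 of those in a list or named, and the median of the bivalent states was 0.21, in a fit where replicates 1 and 2 each occur at 1 age. At the depth of 4645393 reads in the 25-week replicate 2, a count of 0 allows up to 0.646 CPM.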
